A study of Mus musculus with 8 samples.

Results

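Abi3bp and 9 further genes of the stromal matrix were followed in total splenocytes: the fibril-forming collagen genes Col1a1, Col1a2 and Col3a1, the microfibril collagen gene Col6a1, the small leucine-rich proteoglycan genes Dcn and Bgn, the matrix glycoprotein genes Sparc and Fn1, and the receptor gene Pdgfrb. They are 10 of the 51826 genes in the count table. Abi3bp was chosen by its measured difference between the tRA and control mice of this same experiment, and the other 9 were set beside it as genes of stromal matrix with results of this contrast known. For that reason the difference between groups in these 10 genes is given as a description. They were part of the tests across all genes, and how many of them were called is given once beside the share of all genes, without support being drawn from it.

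The RNA came from total splenocytes of 8 female Balb/c mice, 4 in each group. The tRA group received all-trans retinoic acid (tRA), the active metabolite of vitamin A, daily by mouth from weaning until 3 months of age, and the control group received the vehicle, canola oil, on the same schedule. The labels give a dose of 1 mg/kg body weight. They print it for all 8 samples, and the assignment of vehicle to the control mice follows the study's methods. No mouse of either group was injected with pristane, the oil that induces lupus in other arms of the study, so that tRA was compared with vehicle in mice without induced lupus. Whole spleen tissue was not sequenced, and how completely stromal cells, which are held in the meshwork of the organ, enter such a cell suspension was not measured. Total counts on genes ranged from 30919272 to 37539631 in the control mice and from 31810417 to 35165876 in the tRA mice. Levels are in CPM, the count of a gene scaled to a common library size of 1000000. The library size used is the count on the genes that passed the filter on low counts, multiplied by the TMM normalization factor of that library.

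As background, the spleen is built on a network of reticular fibroblasts that secrete collagens, proteoglycans and glycoproteins, while vessels and venous sinuses add endothelial cells and pericytes. Abi3bp encodes a secreted matrix protein with fibronectin type III repeats, named for its binding to the SH3 domain of the adaptor ABI3. Retinoic acid acts through nuclear receptors, RAR and RXR, that bind DNA.

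The markers of the labelled material were checked first. Leukocyte genes dominated: the 11 genes of the leukocyte list (among them Ptprc, Cd79a, Cd3e and Cd74) summed to 12850, 12226, 11848 and 11835 CPM in control mice 1 to 4 and to 11962, 12038, 11159 and 11458 CPM in tRA mice 1 to 4, and all 11 were above 1 CPM on average. Most genes of the reticular and mesenchymal list were low. Of its 20 genes, 15 had a mean under 1 CPM, Lum and Ccl21b had 0 counts in all 8 mice, Pdpn and Ccl19 had 6 counts each over the 8 mice, and Pdgfra had 31. The 5 genes above were Vcam1 at 107, Nt5e at 20.5, Pi16 at 18.8, Cxcl12 at 1.59 and Cxcl13 at 1.13 CPM, of which Vcam1 and Nt5e are also expressed by leukocytes. The stromal label of the 10 genes refers to where they are known to be made, and which cells of these samples held their RNA was not measured.

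Compared per length, as CPM per kb of exon, the 10 genes spanned a wide range. The length is that of all annotated exons of a gene joined, which can be longer than its main transcript. Fn1 was far above the rest with a mean of 11.3 CPM per kb over the 8 mice, a level above that of 71.9% of the genes tested. Sparc followed at 0.917, Pdgfrb at 0.446, Bgn at 0.311 and Abi3bp at 0.185 CPM per kb. The remaining genes were lower still, with Col1a1 at 0.0845, Col1a2 at 0.0486 and Dcn at 0.0482 CPM per kb, and Col3a1 at 0.0389 and Col6a1 at 0.0192 CPM per kb closed the order. Col1a2, Dcn and Col3a1 are neighbours that did not differ beyond their spread between mice. The order depends on the length used: before division by it Col1a2, at a mean of 0.604 CPM, was above Col1a1 at 0.554 CPM. In the tRA mice alone Abi3bp, at 0.267 CPM per kb, lay close below Bgn at 0.307, while in the control mice it was at 0.102, close to Col1a1 at 0.0908. As Fn1 made up most of the summed level of the 10 genes, that sum (from 48.1 CPM in control mouse 1 to 238 CPM in tRA mouse 3) says little of the other 9.

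The filter on low counts was passed by 8 of the 10 genes, and Col6a1 and Dcn did not pass it. By edgeR (quasi-likelihood test, Benjamini-Hochberg adjustment over all 16484 genes tested), 0 of the 8 were called at an FDR under 0.1, where 0 of all genes tested, or 0%, did. At an unadjusted p under 0.05 there was 1, Abi3bp, against 1070 genes or 6.49% of all. That share changed with single libraries, and was 12.6% (2105 genes) without tRA mouse 1 and 3.93% (657 genes) without tRA mouse 4. DESeq2, run without the filter, called 1, again Abi3bp, among 27 genes or 0.198% of those to which it gave an adjusted p. By limma-voom 0 of the 8 were called and 1 gene in all. The groups did not overlap for 1 of the 10 genes, Abi3bp, with tRA above control. Among all genes tested, 1.91% were apart in that direction and 1.63% in the other. As Abi3bp was chosen on this contrast, nothing is read from these counts.

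Abi3bp (ENSMUSG00000035258) lies on chromosome 16 from 56477878 to 56690135 on the plus strand in GRCm38. It was covered by 27, 21, 21 and 32 counts in control mice 1 to 4 and by 40, 47, 107 and 76 counts in tRA mice 1 to 4. In CPM this was 0.731, 0.654, 0.607 and 1.03 with vehicle and 1.22, 1.48, 2.90 and 2.32 with tRA. All 4 tRA mice were above all 4 control mice, with tRA mice 3 and 4 highest, and the gap between the nearest mice of the groups, control mouse 4 and tRA mouse 1, was small. The exact 95% Poisson intervals of their counts, 21.9 to 45.2 and 28.6 to 54.5, overlapped, and such intervals cover counting error only. The means were 0.756 ± 0.192 CPM in control mice and 1.98 ± 0.773 CPM in tRA mice (SD, n = 4 each), for a fitted log2 fold change of 1.39 (standard error 0.315). Of all genes tested, 2 had a larger positive fold change. As Abi3bp was chosen by its difference in this contrast, a high rank follows from the choice and nothing is read from it. Without tRA mouse 3 the log2 fold change was 1.15, and without control mouse 4 it was 1.57. In bulk RNA, more cells that express a gene and more RNA per cell cannot be told apart.

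**Figure D1:**
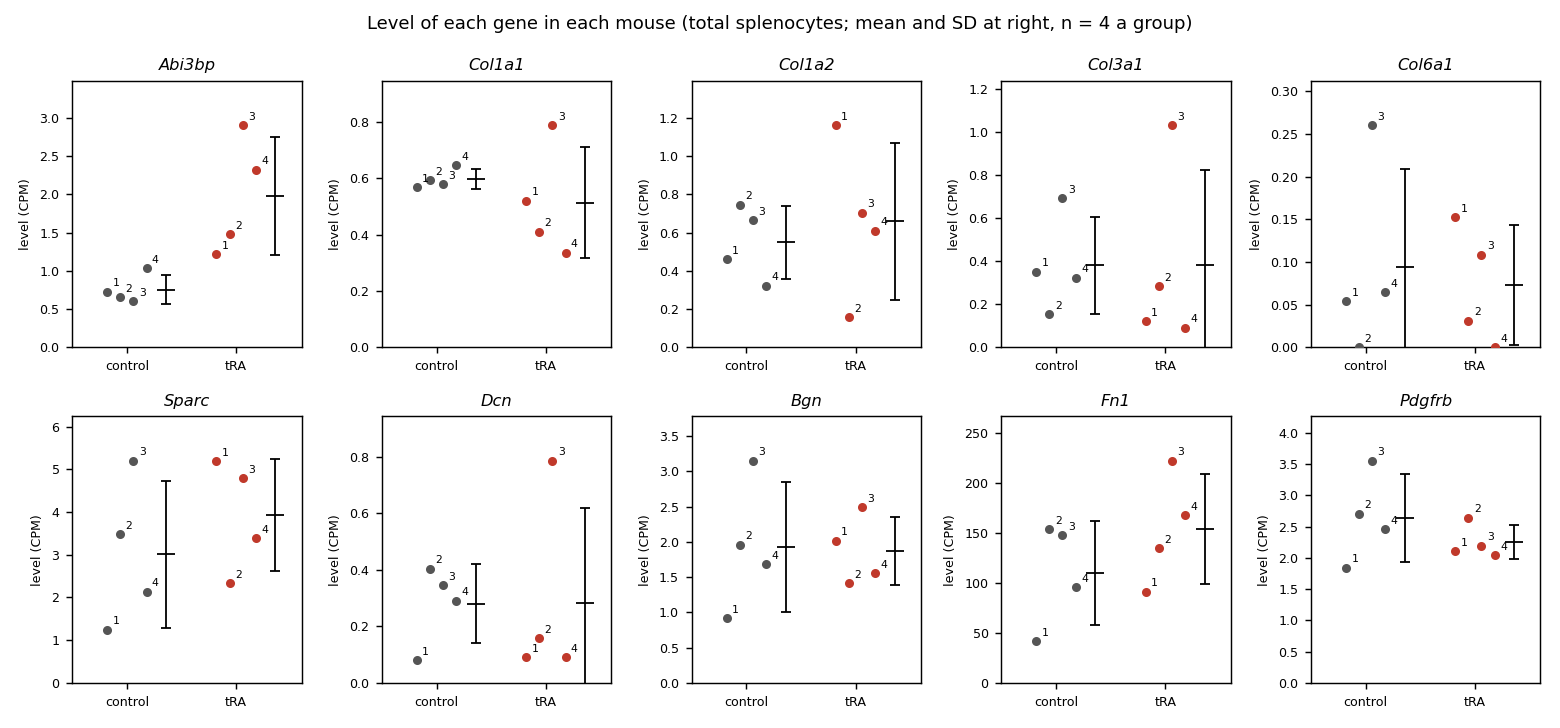
Level of each of the 10 genes in each mouse, in CPM, with control mice in grey and tRA mice in red; points are numbered by mouse, and the bar with whiskers gives the mean and SD (n = 4 a group). Each panel has its own linear axis from 0, where whiskers that would pass below 0 end (Col3a1, Col6a1 and Dcn). Abi3bp ranges from 0.607 to 1.03 CPM in the control mice and from 1.22 to 2.90 CPM in the tRA mice, and the groups overlap in the other 9 panels.

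Type I collagen, the main fibril of connective tissue, is a trimer of the products of Col1a1 and Col1a2. Col1a1 (ENSMUSG00000001506, chromosome 11 from 94936224 to 94953042) had 21, 19, 20 and 20 counts in control mice 1 to 4 and 17, 13, 29 and 11 in tRA mice 1 to 4, or 0.568, 0.591, 0.578 and 0.646 CPM against 0.519, 0.409, 0.786 and 0.336 CPM. The control mice were close to each other, and the tRA mice lay on both sides of them. The log2 fold change was -0.20 (standard error 0.309), and it was -0.50 without tRA mouse 3 and -0.0494 without tRA mouse 4. Col1a2 (ENSMUSG00000029661, chromosome 6 from 4504814 to 4541544) had 17, 24, 23 and 10 counts with vehicle and 38, 5, 26 and 20 with tRA. In CPM its control mice were at 0.460, 0.747, 0.665 and 0.323 and its tRA mice at 1.16, 0.157, 0.705 and 0.611. Both the highest and the lowest mouse were in the tRA group, so that the groups overlapped throughout. Its log2 fold change was 0.26 (standard error 0.484), which turned to -0.15 without tRA mouse 1 and was 0.58 without tRA mouse 2. Although the products of both genes join in 1 protein, the mouse with the most Col1a1 was tRA mouse 3 and the mouse with the most Col1a2 was tRA mouse 1.

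Col3a1 (ENSMUSG00000026043, chromosome 1 from 45311538 to 45349706) encodes type III collagen, the collagen of reticular fibers. It had 13, 5, 24 and 10 counts in control mice 1 to 4 and 4, 9, 38 and 3 counts in tRA mice 1 to 4. The levels were 0.352, 0.156, 0.693 and 0.323 CPM with vehicle and 0.122, 0.283, 1.03 and 0.0917 CPM with tRA. In each group mouse 3 was highest, and the groups overlapped. The group means were 0.381 ± 0.226 and 0.382 ± 0.440 CPM (SD, n = 4 each), with a log2 fold change of 0.03 (standard error 0.695). This value rested on tRA mouse 3, without which it was -1.20, and it was 0.48 without control mouse 3. It was negative in 6 of the 14 alternative fits that kept the gene. Col6a1 (ENSMUSG00000001119, chromosome 10 from 76708792 to 76726168), a chain of the beaded microfibrils of type VI collagen, had 2, 0, 9 and 2 counts with vehicle and 5, 1, 4 and 0 with tRA. At this depth a difference in Col6a1 was not detectable: a count of 0 allows (up to 3 counts) up to 0.0934 CPM in control mouse 2 and up to 0.0917 CPM in tRA mouse 4.

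Dcn and Bgn encode decorin and biglycan, related proteoglycans that bind collagen fibrils. Dcn (ENSMUSG00000019929, chromosome 10 from 97479609 to 97518143) had 3, 13, 12 and 9 counts with vehicle and 3, 5, 29 and 3 with tRA, and tRA mouse 3 held more than the other 3 tRA mice together. The group means were 0.281 ± 0.141 CPM (SD, n = 4) and 0.282 ± 0.338 (SD, n = 4). Bgn (ENSMUSG00000031375, chromosome X from 73483602 to 73495933) was better covered, with 34, 63, 109 and 52 counts in control mice 1 to 4 and 66, 45, 92 and 51 in tRA mice 1 to 4. Its levels were 0.920, 1.96, 3.15 and 1.68 CPM with vehicle and 2.02, 1.42, 2.49 and 1.56 CPM with tRA. The range of the control mice enclosed that of the tRA mice. The log2 fold change was -0.04 (standard error 0.338), with -0.27 without control mouse 1 and 0.30 without control mouse 3, and its sign was the opposite in 5 of 15 alternative fits.

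Sparc (ENSMUSG00000018593, chromosome 11 from 55394500 to 55423183) encodes osteonectin, a collagen-binding glycoprotein made by fibroblasts, endothelial cells and megakaryocytes. Its counts were 46, 112, 180 and 66 with vehicle and 170, 74, 177 and 111 with tRA, or 1.24, 3.49, 5.20 and 2.13 CPM against 5.19, 2.33, 4.80 and 3.39 CPM. The highest control mouse and the highest tRA mouse were at the same level, and the groups overlapped. The log2 fold change of 0.38 (standard error 0.392) was 0.12 without control mouse 1 and 0.78 without control mouse 3.

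Fn1 (ENSMUSG00000026193, chromosome 1 from 71585520 to 71653200) encodes fibronectin, which links the matrix to integrins and which macrophages and other leukocytes also make. It had 1546, 4945, 5118 and 2957 counts in control mice 1 to 4 and 2986, 4285, 8189 and 5490 in tRA mice 1 to 4, so that counting error was small beside the spread between mice. In CPM this was 41.8, 154, 148 and 95.6 with vehicle and 91.2, 135, 222 and 168 with tRA. Control mouse 1 was lowest and tRA mouse 3 highest, and the other 6 mice were interleaved. The log2 fold change was 0.49 (standard error 0.364), from 0.22 without control mouse 1 to 0.70 without control mouse 2. The antisense gene Apol7d overlaps exons of Fn1 on the other strand, and as the library kit does not mark the strand, its reads cannot be told apart from those of Fn1. Its own row held at most 3 counts in a mouse.

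Pdgfrb (ENSMUSG00000024620), the receptor for PDGF-B on pericytes and fibroblasts, had 68, 87, 123 and 76 counts in control mice 1 to 4 and 69, 84, 81 and 67 in tRA mice 1 to 4. The levels were 1.84, 2.71, 3.55 and 2.46 CPM with vehicle and 2.11, 2.65, 2.20 and 2.05 CPM with tRA. The tRA mice lay within the range of the control mice. The log2 fold change was -0.23 (standard error 0.215), and it was -0.37 without control mouse 1 and -0.06 without control mouse 3.

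Markers of endothelial cells varied between mice. In the control mice 3 of the 10 genes followed the order of the listed markers without Pecam1, but not that of the whole list. The other 7 had other orders, and nothing is read from this count. Of the 20 genes on the endothelial list, 17 were tested, 11 with a positive and 6 with a negative log2 fold change and a median of 0.07, and no marker on it was at 0 in all mice. That median was -0.20 without tRA mouse 3 and 0.36 without control mouse 3. The list summed to 268, 300, 310 and 268 CPM in control mice 1 to 4 and to 278, 279, 316 and 287 CPM in tRA mice 1 to 4. Most of that sum was Pecam1, which leukocytes and platelets also express, at a mean of 240 CPM. The other 19 genes, a split made after the values were seen, summed to 26.8, 55.4, 69.0 and 34.8 CPM with vehicle and to 41.3, 38.0, 72.8 and 47.9 CPM with tRA. Among the control mice, these 19 genes, Sparc, Bgn and Pdgfrb shared 1 order of the mice, with mouse 3 highest, then 2, then 4, and mouse 1 lowest. The whole list with Pecam1 had another order, with mouse 4 lowest at 267.7 CPM and mouse 1 at 268.1 CPM. The reticular list without Vcam1 (mostly Nt5e and Pi16) and the adipocyte list also had the order of the 19 genes. That order was thus not particular to endothelial markers. The share of all genes with this order was not counted, so that the match says nothing particular of Sparc, Bgn and Pdgfrb. The other 7 of the 10 genes had other orders: Fn1 and Dcn were highest in mouse 2 and lowest in mouse 1, Col1a2 was highest in mouse 2 and lowest in mouse 4, Col3a1 and Col6a1 were highest in mouse 3 and lowest in mouse 2, and Col1a1 was highest in mouse 4 and lowest in mouse 1. In the tRA group Bgn was also highest in mouse 3, as were the 19 genes, whereas Sparc was highest in mouse 1 and Pdgfrb in mouse 2. Plvap, a gene of fenestrated and sinus endothelium, went from 2.17 CPM in control mouse 1 to 10.6 in control mouse 3. For Abi3bp, control mouse 4 was highest and control mouse 3 lowest. In the tRA group Abi3bp was highest in mouse 3 and then mouse 4, as were the 19 genes, while mouse 1 was lowest for Abi3bp and mouse 2 for the 19 genes. The whole list with Pecam1 had tRA mouse 1 lowest, at 278 CPM, with mouse 2 at 279 CPM. Its order of the tRA mice was thus that of Abi3bp and Fn1. How many of all genes had that order was not counted either, and nothing is read from it. The part of endothelial cells in the levels of Abi3bp, Sparc and Bgn was not tested.

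**Figure D2:**
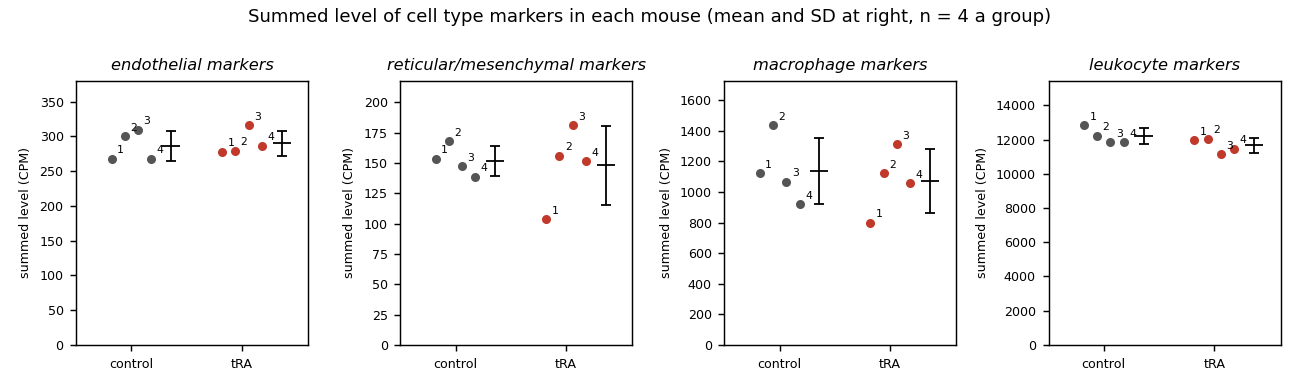
Summed level of 4 cell type marker lists in each mouse, in CPM, with control mice in grey and tRA mice in red, numbered by mouse, and mean with SD at the right (n = 4 a group). The endothelial list ranges from 268 to 310 CPM in the control mice and from 278 to 316 CPM in the tRA mice, and in all 4 panels the groups overlap.

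The reticular and mesenchymal list, with Vcam1 (which macrophages also express) its most abundant gene at 107 CPM, summed to 154, 168, 147 and 139 CPM with vehicle and 104, 156, 181 and 151 CPM with tRA. Of its 6 tested genes 3 had a positive and 3 a negative fold change. The other 19 genes without Vcam1, again a split made after the values were seen, summed to 32.7, 46.8, 50.4 and 44.9 CPM with vehicle and to 37.2, 40.7, 45.1 and 48.7 CPM with tRA. Control mouse 3 and tRA mouse 4 were highest in their groups, and the groups overlapped. Most of this sum was Pi16 and Nt5e, the latter also expressed by leukocytes. Cxcl13 and Cxcl12, chemokines of follicular and perivascular stroma that were picked with their values in view, were highest in mouse 3 of each group, but Vcam1 was at 97.0 CPM in control mouse 3 and at 121 CPM in control mice 1 and 2. For smooth muscle cells and pericytes, 7 of 12 genes were tested, with 3 positive and 4 negative and the most abundant, Mcam, at 7.14 CPM. This list summed to 13.6, 17.6, 14.8 and 14.0 CPM with vehicle and to 19.1, 13.8, 16.7 and 14.2 CPM with tRA. Its median of -0.11 had no stable sign, being positive in 8 of 15 alternative fits, with -0.13 without tRA mouse 3. The median was 0.37 by edgeR without the filter on low counts and also 0.37 by DESeq2, which was run without that filter. Markers of other tissues that can adhere to the spleen were examined as well. The 16 pancreatic acinar genes summed to 18.6, 20.7, 15.1 and 17.7 CPM with vehicle and to 17.0, 19.6, 20.4 and 16.7 CPM with tRA, a sum of the size of that for smooth muscle cells. Most of it was Rbpjl at a mean of 10.8 CPM, while 5 of the 16, among them the genes of the digestive enzymes Cpa1 and Amy2a5, had 0 counts, and 3 were tested (1 positive, 2 negative). All 8 mesothelial genes had a mean under 1 CPM, and adipocyte genes summed to at most 4.16 CPM, in control mouse 3. Both adipocyte genes tested were negative, with a median of -0.57 (-0.0047 without the filter on low counts). Of these genes 1, Fabp4, had an unadjusted p under 0.05, as 6.49% of all genes tested did. Fabp4 was at 1.11, 2.05, 3.26 and 1.71 CPM with vehicle and 1.25, 0.945, 0.732 and 1.65 CPM with tRA, and its groups overlapped. Macrophage genes, all 16 tested with 4 positive and 12 negative and a median of -0.03 (-0.21 without tRA mouse 3 and 0.09 without control mouse 2), summed to 1125, 1438, 1068 and 920 CPM with vehicle and 800, 1121, 1311 and 1057 CPM with tRA. Megakaryocyte genes (8 of 12 tested, 4 in each direction, Itgb3 most abundant at 128 CPM) had a median of -0.04. Without the filter on low counts it was -0.28, by edgeR and by DESeq2 alike, and without control mouse 1 it was 0.02. Follicular dendritic cell genes (6 of the 7 found tested, 3 in each direction) had a median of 0.01. That was -0.27 without tRA mouse 3 and 0.05 without tRA mouse 1. Their most abundant gene was Fcer2a at 829 CPM, which B cells also express. The leukocyte list had 7 positive and 4 negative genes with a median of 0.10, which was 0.0362 without control mouse 2, 0.0627 without tRA mouse 3 and 0.0610 without tRA mouse 4. Its most abundant gene, Cd74, the invariant chain of MHC class II, made up more of the summed level than the other 10 genes together, at 7293, 6943, 6764 and 6748 CPM with vehicle and 6638, 6539, 5869 and 5788 CPM with tRA. All 4 tRA mice were below all 4 control mice for Cd74, as for 1.63% of all genes tested, with a log2 fold change of -0.16 (standard error 0.0866), and it was the 1 gene of the 11 whose groups did not overlap. Without Cd74 the list summed to 5557, 5282, 5084 and 5087 CPM with vehicle and 5324, 5499, 5290 and 5670 CPM with tRA, and the groups overlapped. The median of all genes tested was 0.00.

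The genes whose log2 CPM, centred within each group, was most like that of Abi3bp over the 8 mice were Il1rl1 (Pearson r 0.989), Myo19 (0.987), Slc25a42 (0.978), Gm26528 (0.974) and Pdia5 (0.974), out of 13577 genes with a mean of at least 1 CPM. With 8 points, fewer of them free after centring within each group, and so many genes, values of this size are a description only. Of the 9 other stromal matrix genes, 4 had such a mean and could be ranked, and they were not among these 5 genes: Fn1 ranked 4122 (r 0.356), Bgn 6367 (0.0318), Sparc 7367 (-0.119) and Pdgfrb 8407 (-0.268). Col1a1, Col1a2, Col3a1, Col6a1 and Dcn had a mean under 1 CPM and were not ranked. For Col1a1 the nearest were Cacna1g (0.954), Ube2c (0.943), Gm9917 (0.938), Prr22 (0.935) and Mras (0.924). Of the 5 genes of the 10 that could be ranked against it, Bgn came first, at 1558 (0.431). Low counts limit such values for both genes.

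Other genes of the same pathways were examined as 10 lists. In each of them edgeR (quasi-likelihood test, Benjamini-Hochberg adjustment over all genes tested) called 0 genes at an FDR under 0.1, and the medians of the log2 fold change lay between -0.29 (PDGF genes) and 0.08, with a sign that changed in at least 1 alternative fit for 6 of the 10 lists. Of the 147 genes tested in the 10 lists, 6 or 4.08% had an unadjusted p under 0.05, against 6.49% of all genes tested. They were 12 or 8.16% without tRA mouse 1, against 12.6% of all genes tested, and 3 or 2.03% without tRA mouse 4, against 3.93%. The groups did not overlap for 2 of the 147 with tRA above control, Vcan and Smad4 (1.36%, against 1.91% of all genes tested), and for 3 with tRA below, Timp1, Sdc1 and Itgb8 (2.04%, against 1.63%). Nothing about the lists is read from these shares. Beside the largest fold change of each list, the value nearest 0 with a mouse left out is given.

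Of 11 genes of ABI3 and the WAVE regulatory complex, which drives actin branching, 9 were tested, 6 positive and 3 negative, with 0 at an unadjusted p under 0.05. The most abundant, Cyfip2, was at 419 ± 41.2 CPM in control mice and 444 ± 32.4 CPM in tRA mice (SD, n = 4 each), and the largest fold change was 0.18 (standard error 0.145), for Abi2, or 0.0976 without control mouse 2.

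Of 40 other collagen genes, 19 were tested, 7 positive and 12 negative with 0 at an unadjusted p under 0.05, and Col9a1 and Col22a1 had 0 counts. The median of -0.05 was -0.15 without tRA mouse 3 and turned to 0.0295 without control mouse 3 and 0.0178 without tRA mouse 4. The most abundant was not a fibrillar collagen but Col6a4, at 164 ± 14.8 CPM in control mice and 174 ± 6.74 CPM in tRA mice (SD, n = 4 each). Col11a2, of a fibrillar collagen, was at 75.9 CPM with vehicle and 75.3 with tRA. Genes that overlap these other collagen genes were not looked up. The largest fold change was -0.68 (standard error 0.375), for Col5a3, with overlapping groups. Control mouse 1, at 11.4 CPM against 2.29 to 6.33 CPM in the other control mice, made up much of it, and without that mouse it was -0.23. Among 24 genes that process and crosslink collagen, 18 were tested, 8 positive and 10 negative, and 2 had an unadjusted p under 0.05 (6.49% of all genes tested did), Pcolce and P4hb. P4hb, the protein disulfide isomerase subunit of prolyl 4-hydroxylase, which also folds other secreted proteins, was the most abundant, at 333 ± 41.4 CPM in control mice and 272 ± 39.3 CPM in tRA mice (SD, n = 4 each), and its groups overlapped. Serpinh1, the collagen chaperone HSP47, had the largest fold change, -0.44 (standard error 0.295), at a mean of 1.44 CPM with vehicle and 1.06 with tRA, and it was -0.28 without control mouse 4.

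Few other small leucine-rich proteoglycans were measured: 3 of 12 were tested, 2 positive and 1 negative, and Lum, Kera and Epyc had 0 counts. Podnl1 was the most abundant at 23.5 CPM with vehicle and 23.6 with tRA, and Nyx had the largest fold change, -0.46 (standard error 0.336). That value rested on control mouse 4, at 4.43 CPM against 1.27 to 2.21 CPM in the other control mice, without which it was -0.0180. Of 38 other matrix glycoproteins 22 were tested, 16 positive and 6 negative with a median of 0.08, which was -0.02 without control mouse 1 and -0.0052 without tRA mouse 3. Tgfbi was the most abundant at 70.5 CPM with vehicle and 72.6 with tRA. Vcan, the gene of versican, had the largest fold change, 0.67 (standard error 0.305), from 0.459 ± 0.126 CPM (SD, n = 4) to 0.726 ± 0.154 (SD, n = 4), and it was 0.48 without control mouse 1. Vcan was the 1 gene of the 22 whose groups did not overlap. Of 15 laminin and basement membrane genes 9 were tested, 4 positive and 5 negative. Lamc1 was the most abundant at 35.5 CPM with vehicle and 37.3 with tRA, and Hspg2, the gene of perlecan, had the largest fold change, 0.99 (standard error 0.526), with means of 1.98 ± 1.16 CPM (SD, n = 4) and 3.90 ± 2.45 (SD, n = 4) and overlapping groups, and 0.59 without tRA mouse 1. The study also followed the Lamb1 transcript in kidney, by RT-qPCR in older mice of its pristane arms. Tissue, age, treatment and method thus differ from those here. In these splenocytes Lamb1 was at 1.49 ± 0.599 CPM in control mice and 1.39 ± 0.276 CPM in tRA mice (SD, n = 4 each), with a log2 fold change of -0.09 (standard error 0.302), which was 0.09 without control mouse 2.

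Of 29 matrix proteases and inhibitors 20 were tested, 9 positive and 11 negative, with 1 at an unadjusted p under 0.05 (6.49% of all genes tested were). That was Mmp19, with the largest fold change at 0.81 (standard error 0.333), or 0.55 without control mouse 1, while the most abundant, Mmp9, was at 43.6 CPM with vehicle and 40.0 with tRA. Of 25 matrix receptors 22 were tested, 11 in each direction, with 2 at an unadjusted p under 0.05, Cd44 and Itgb8 (6.49% of all genes tested were). Itgb1, the shared chain of many collagen and fibronectin receptors, was the most abundant at 193 CPM with vehicle and 192 with tRA, and Mrc2, an endocytic collagen receptor, had the largest fold change, -0.88 (standard error 0.447), or -0.59 without control mouse 4. Of the 6 PDGF genes beside Pdgfrb 3 were tested, 1 positive and 2 negative. Pdgfb, which encodes the ligand of Pdgfrb, was at 11.1 ± 2.41 CPM in control mice and 9.07 ± 0.852 CPM in tRA mice (SD, n = 4 each), and Pdgfa had the largest fold change, 0.34 (standard error 0.354), which was 0.0953 without control mouse 4 and 0.60 without control mouse 3. The 22 genes of the TGF-beta pathway found were all tested, 10 positive and 12 negative. Their median of -0.06 was -0.00073 without tRA mouse 4, -0.0110 without tRA mouse 2 and -0.0071 by limma-voom. Of these genes 1, Tgfb3, had an unadjusted p under 0.05 (6.49% of all genes tested did). Its fold change was the largest, -0.43 (standard error 0.169), or -0.33 without control mouse 1. Tgfbr2 was the most abundant at 299 CPM with vehicle and 311 with tRA. Tgfb1 was at 252 ± 18.6 CPM in control mice and 248 ± 8.17 CPM in tRA mice (SD, n = 4 each), with a log2 fold change of -0.03 (standard error 0.0693), which was 0.0214 without control mouse 1.

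Promoter sequence from RefSeq (GRCm38.p6) was at hand for 5 of the 10 genes, Col1a2, Col3a1, Col6a1, Sparc and Bgn. Abi3bp was thus not searched. The study lists it, under the name Nesh, with its closest retinoid receptor binding region outside the gene, and that region was not examined here. For these 5 genes, the 250 bases before the start of transcription that RefSeq gives were searched on both strands for 6 motifs: AGGTCA, the usual half-site of RAR and RXR, its variant AGTTCA, the TATA box TATAAA, the letters CCAAT of the box of that name, the SP1 motif GGGCGG, and the AP-1 motif TGANTCA. Of these, AGGTCA was in none of the 5 windows, and 14.0% of 32851 such windows of the mouse genome hold it. AGTTCA was in 1, that of Sparc, beginning 214 bases before the RefSeq start, and in 11.8% of all windows. GGGCGG was found at 2 places for Col1a2 and at 3 for Bgn, of which 2 overlap each other, and 32.7% of all windows hold it. Col1a2 also had CCAAT (33.8% of all), Col3a1 TATAAA (12.4%) and Col6a1 TGANTCA (6.75%). Such a match is a description of the letters and not of binding. In GENCODE M21, which has transcripts with other starts, the windows of Col3a1 and Bgn lie before the gene and overlap no exon. That of Col6a1 lies partly within its gene, with 124 bases in an exon, and those of Col1a2 and Sparc lie wholly within their genes, with 127 and 238 bases in exons. The window of Bgn (chrX:73483351-73483600, plus strand) is shown because this gene shared 1 order of the control mice with Sparc and Pdgfrb, with the motifs in capitals. They lie on the opposite strand and so read CCGCCC.
Bgn: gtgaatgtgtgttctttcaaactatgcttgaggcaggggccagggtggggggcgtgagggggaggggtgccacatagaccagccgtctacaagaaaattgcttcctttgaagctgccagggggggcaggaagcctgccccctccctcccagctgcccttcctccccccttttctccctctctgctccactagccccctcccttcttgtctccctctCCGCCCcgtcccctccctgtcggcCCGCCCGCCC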

How the data were processed

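The authors deposited raw counts per gene and mouse, without normalization. The study's methods name Bowtie2, Tophat2 and HTSeq for alignment and counting, whereas the submitters' processing notes name STAR 2.5.2b, featureCounts 1.5.1, DESeq2 1.26.0 and GRCm38. Which of these gave the table is not known. The authors' deposited DESeq2 comparison of tRA with control (fold changes, p-values and means of normalized counts) was not used. Libraries were made with the TruSeq v2 kit, which does not mark the strand.

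The fits used edgeR 4.0.16 in R 4.3.3 (filterByExpr with a minimum of 10 counts, TMM, quasi-likelihood test, Benjamini-Hochberg adjustment, FDR threshold 0.1), limma 3.58.1 and DESeq2 1.42.0, and figures were drawn in Python 3.11.15 with matplotlib 3.10.9. The fits were also run on simulated data, of which no result is given here and from which nothing is read. Standard errors were taken from the fold change and its F statistic. Symbols, positions and exon lengths came from GENCODE M21, in which 193 of the identifiers had no entry. Log2 CPM for likeness used an offset of 0.5 CPM. Motifs were matched exactly.

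The members and lists were chosen with earlier results of these data known. From the leukocyte list 1 gene was taken out and is not reported here. Named genes were the 10 members, of each pathway list every gene with an FDR under 0.1, the most abundant and the one with the largest fold change, Lamb1 and Tgfb1, and the 5 genes most like Abi3bp and the 5 most like Col1a1. Other genes named in the text (markers, and genes at an unadjusted p under 0.05) were picked with their values in view. Alternative fits replaced edgeR by DESeq2 or limma-voom, TMM by RLE or by unscaled library sizes, and the filter by none or by one of 10 counts in each of the 8 samples, or added the replicate number as a block, or left out each mouse in turn. The DESeq2 fit was made without the filter on low counts, on 29817 genes, so that it changed the filter as well as the tool.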

Additional observations from a re-analysis of the deposited data

Results flagged for a closer look

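A mouse far from the other 3 of its group was found in 7 of 106 groups of 4 examined, where chance gives about 1 in 20, or 5.3. Dcn was at 0.786 CPM in tRA mouse 3 against 0.0916 to 0.157 CPM in the other tRA mice. The sum of matrix proteases and inhibitors was 143.5 CPM in tRA mouse 4 against 109.8 to 112.5 CPM, and that of matrix receptors was 880.1 CPM in control mouse 4 against 831 to 838 CPM. Col5a3 was at 5.22 CPM in tRA mouse 1 against 3.46 to 3.74 CPM. Vcan was at 0.271 CPM in control mouse 1 against 0.517 to 0.529 CPM, Lamc1 at 28.5 CPM in control mouse 3 against 37.5 to 38.5 CPM, and Pdgfb at 14.7 CPM in control mouse 3 against 9.60 to 10.3 CPM.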

How the results depend on the processing

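The number of genes with an FDR under 0.1 was 0 by edgeR, with 1070 at an unadjusted p under 0.05 (2105 without tRA replicate 1 and 657 without tRA replicate 4). DESeq2, run without the filter, gave 27, and edgeR without the filter gave 6. With the filter limma-voom gave 1, and leaving out each mouse in turn gave 0 to 3, with 3 when tRA replicate 4 was omitted. The cause was not tested. It was 0 with RLE normalization, library size alone and at least 10 counts in every sample. Mice with the same number correlated in their deviations from the group means by 0.210, -0.0236, -0.0219 and 0.308. The number was thus not taken to pair them, and with it as a replicate block 0 genes were called.

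With each mouse left out, the median log2 fold change ranged from 0.00816 to 0.10 for ABI3 and the WAVE regulatory complex, from -0.0156 to 0.11 for matrix proteases and inhibitors, and from -0.36 to -0.0197 for PDGF genes, and the cause was not tested. The sign of the median changed in at least 1 alternative for 6 of 10 pathway lists and 7 of 10 marker lists. Abi3bp, Col1a1, Sparc, Fn1 and Pdgfrb kept their sign in all 15 alternatives. Leaving out each mouse for the genes named from the pathway lists was chosen after the data were seen. The sign then changed for 0 of the 10 genes with the largest fold change of their list and for 6 of the 10 most abundant. Of 458 other values under alternatives, 428 moved by less than the spread between mice (a count of genes, by less than 1.5 times) and 30 by more, 21 of these with a mouse left out. That tally is no measure of stability, as the change of sign of Col1a2 without tRA mouse 1 is among the 428. The low counts of the collagens, Dcn and Abi3bp limit what these libraries can show.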
